A study of Mus musculus with 4 samples.

Results

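The acute phase genes described here are 10 liver genes chosen by symbol from the 24421 gene symbols of the deposited table: the serum amyloids Saa1, Saa2, Saa3 and Saa4, the orosomucoids Orm1 and Orm2, the pentraxin Apcs, the lipocalin Lcn2, haptoglobin (Hp) and hemopexin (Hpx). They were chosen with the values of these libraries known, among them the difference between the gelADSC libraries. Their levels and differences are therefore given as a description. The number of them past the threshold of a fit over all genes is stated beside the share or number of all genes called. Nothing is read from it. The libraries come from livers of mice after hepatectomy. In the gelADSC group (2 libraries) the mice were treated with fibrin gel that carried ADSC, stem cells derived from adipose tissue. In the control group (2 libraries) they received fibrin gel without the cells. The sources used here give no strain, sex or age, no time after hepatectomy and no origin of the ADSC, and do not say whether libraries of a group came from separate animals. Any p-value therefore measures only the spread between these libraries, which may be technical.

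The acute phase response is a rapid change in the proteins that hepatocytes secrete after injury, surgery or infection. Interleukin 6 and its relatives act through the receptor subunit gp130 and STAT3, while interleukin 1 and tumour necrosis factor act through NF-kB, and C/EBP transcription factors bind many of the promoters concerned. Serum amyloid A, orosomucoid, haptoglobin and hemopexin rise in plasma in this response, and hepatectomy is among the injuries known to set it off.

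Liver identity and depth were read from the table before the members. Albumin (Alb) read 22023 and 38330 FPKM in gelADSC libraries 2 and 3, and 28129 and 31907 FPKM in control libraries 1 and 3, where FPKM is a fragment count scaled by gene length and by the library's total. The smallest steps between low values put the depth at roughly 18100000 to 24400000 reads per library. The lowest value of any member, 11.2 FPKM for Saa3 in control library 3, stood for roughly 110 reads, so counting error is small beside the members' differences. For other genes, 1 read in a gene of 1 kb stood for roughly 0.041 to 0.0552 FPKM, so values near these rest on few reads. Library numbers are those of the table's columns and pair no libraries.

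Promoter windows show what the genes share in sequence. For 8 of the 10 genes the bases from -250 to -51 before the annotated start were taken from RefSeq (build GRCm38.p6). Orm1 and Hp were not matched. For Apcs alone, the bases just after the start used were in no GENCODE transcript of the gene, so the place of its window is less certain. RefSeq gene spans reach to the outermost annotated start, and inside them lay 151 of the 200 bases of the Saa1 window, all 200 of the Saa3 window and 0 of the other 6, so the Saa1 and Saa3 windows precede the start used here and not the outermost one. Windows were searched on both strands for a C/EBP motif (TTGCNNAA), a STAT motif (TTCNNNGAA) and an NF-kB motif (GGNNTTTCC), where N is any base. The C/EBP letters were found once in 7 of the 8 windows, all but that of Apcs, and in 8.11% of 32851 windows of the same length over all genes. STAT letters were found in 1 window, that of Apcs, against 5.76% of all windows, and the NF-kB letters in 1, that of Saa3, against 3.88%. A longer NF-kB form, with a further G in front, was searched first and was found in 0 of the 8 windows and in 1.05% of all windows. The shorter form was taken after that count was seen, and the Saa3 match is absent under the longer one. No match of the 3 motifs overlapped another. These matches are a description of the letters in this window and not evidence of binding. The windows of Saa1 and Saa2 were 94.5% identical over 199 aligned bases, so their matches are not independent, while those of Saa3 and Saa1 were 65.5% identical over 168. The windows of the 4 genes that differed most between the gelADSC libraries are shown with that of Lcn2, the gene that was lower in both gelADSC libraries. They are written 5′ to 3′ on the gene's strand, with each match in capitals, which is the C/EBP match except where stated.
Saa1, chr7:46743031-46743230, minus strand: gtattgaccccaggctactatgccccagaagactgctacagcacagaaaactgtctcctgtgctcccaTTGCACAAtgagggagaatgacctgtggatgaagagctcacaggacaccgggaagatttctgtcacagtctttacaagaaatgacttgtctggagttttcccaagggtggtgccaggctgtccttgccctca
Saa2, chr7:46751583-46751782, plus strand: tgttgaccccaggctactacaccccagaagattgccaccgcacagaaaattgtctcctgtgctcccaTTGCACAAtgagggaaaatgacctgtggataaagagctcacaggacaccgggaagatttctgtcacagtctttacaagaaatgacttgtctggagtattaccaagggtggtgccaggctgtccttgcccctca
Saa3, chr7:46715727-46715926, minus strand: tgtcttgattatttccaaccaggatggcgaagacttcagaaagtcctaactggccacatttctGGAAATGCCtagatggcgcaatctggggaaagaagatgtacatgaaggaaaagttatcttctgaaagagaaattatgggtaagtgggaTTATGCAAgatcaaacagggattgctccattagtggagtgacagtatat
Orm2, chr4:63362199-63362398, plus strand: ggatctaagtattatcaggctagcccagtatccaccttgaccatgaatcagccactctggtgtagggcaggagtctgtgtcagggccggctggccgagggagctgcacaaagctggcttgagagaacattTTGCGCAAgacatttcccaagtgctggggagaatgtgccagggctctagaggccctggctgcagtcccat
Lcn2, chr2:32387790-32387989, minus strand: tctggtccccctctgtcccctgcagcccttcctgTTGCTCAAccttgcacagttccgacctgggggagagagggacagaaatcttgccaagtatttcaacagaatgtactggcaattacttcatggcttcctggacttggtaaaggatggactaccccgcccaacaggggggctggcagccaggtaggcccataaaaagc
The match began at -182 in Saa1 and at -183 in Saa2, with the same letters. In Saa3 it began at -99, and the first run of capitals there, at -187, is the NF-kB match. It began in Orm2 at -120 and in Lcn2 at -216.

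Saa1 and Saa2 encode the major acute phase serum amyloids, small apolipoproteins that the liver secretes onto high-density lipoprotein. Saa1 read 16936 and 4077 FPKM in gelADSC libraries 2 and 3, and 4734 and 6813 FPKM in control libraries 1 and 3. Saa2 read 17215 and 3114 FPKM in gelADSC, and 4170 and 6670 FPKM in control. For both genes gelADSC library 2 was the highest of the 4 libraries and gelADSC library 3 the lowest, so the groups overlapped. The log2 difference, gelADSC minus control on the log2(FPKM + 1) scale, was 0.55 (SE 0.58) for Saa1 and 0.47 (SE 0.68) for Saa2. The transcripts of Saa2 and Saa1 were 94.4% identical over 606 aligned bases, so reads could be shared between the copies and the split between them is uncertain. The ratio of Saa2 to Saa1 was 1.02 and 0.764 in gelADSC and 0.881 and 0.979 in control.

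Saa3, a serum amyloid that in the mouse is also made outside hepatocytes, in macrophages and adipocytes, differed more between libraries than any other member. It read 1867 and 14.7 FPKM in gelADSC libraries 2 and 3, and 15.7 and 11.2 FPKM in control libraries 1 and 3. Only gelADSC library 2 was high, 127-fold above gelADSC library 3, which lay within the range of the controls. Among the 11070 genes that averaged 1 FPKM or more, Saa3 ranked 1 by the log2 difference of gelADSC library 2 minus library 3 (6.90). The ratio of Saa3 to Saa1 was 0.110 and 0.00360 in gelADSC and 0.00331 and 0.00165 in control, and was high in gelADSC library 2 alone. The log2 difference between the groups was 3.58 (SE 1.70). Its transcript was 75.7% identical to that of Saa1 over 519 aligned bases.

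Saa4, the constitutive serum amyloid of the liver, showed another pattern. It read 291 and 212 FPKM in gelADSC libraries 2 and 3, and 45.3 and 76.4 FPKM in control libraries 1 and 3. Both gelADSC libraries were above both controls, and the gelADSC libraries were within 1.37-fold of each other. The log2 difference was 2.06 (SE 0.28), the second after Saa3 among the serum amyloids. The ratio of Saa4 to Saa1 was highest in gelADSC library 3, at 0.0521, against 0.0172 in gelADSC library 2, and was 0.00956 and 0.0112 in control.

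**Figure D1:**
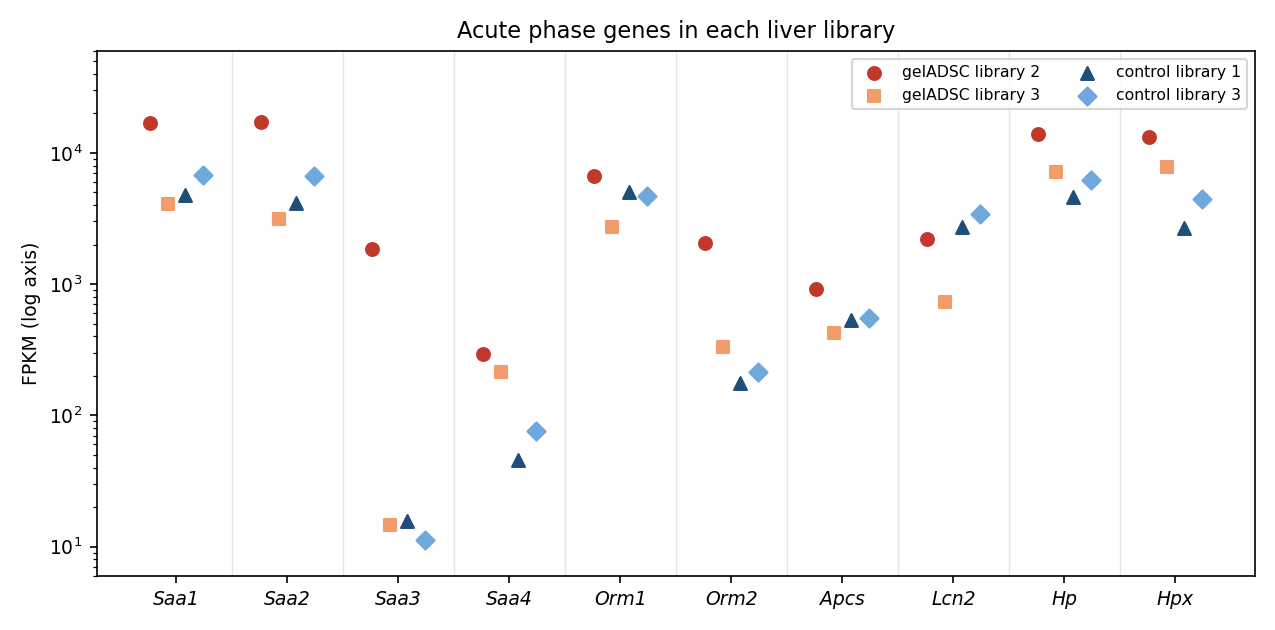
FPKM on a log axis for each of the 10 genes, with 1 symbol per library and the gelADSC libraries left of the control libraries. Saa3 was at 1867 FPKM in gelADSC library 2 and between 11.2 and 15.7 FPKM in the other libraries, while Lcn2 was lower in both gelADSC libraries than in both controls.

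Orm1 and Orm2 encode orosomucoids, also called alpha-1-acid glycoproteins, which bind drugs and lipids in plasma. Orm1 read 6705 and 2711 FPKM in gelADSC libraries 2 and 3, and 5057 and 4682 FPKM in control libraries 1 and 3, with the controls between the gelADSC libraries. Orm2 read 2052 and 333 FPKM in gelADSC, and 176 and 212 FPKM in control. For Orm2 both gelADSC libraries were above both controls, library 2 by far the more. The log2 difference was -0.19 (SE 0.40) for Orm1, which turned to 0.10 with median ratio scaling, and 2.09 (SE 0.67) for Orm2. The ratio of Orm2 to Orm1 was 0.306 and 0.123 in gelADSC and 0.0349 and 0.0454 in control. The transcripts of Orm2 and Orm1 were 91.0% identical over 775 aligned bases, so the split of reads between them is uncertain.

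Apcs encodes serum amyloid P component, a pentraxin that is a major acute phase protein in the mouse. It read 923 and 422 FPKM in gelADSC libraries 2 and 3, and 533 and 550 FPKM in control libraries 1 and 3. The controls lay close together between the gelADSC libraries, and the log2 difference was 0.21 (SE 0.34). Lcn2 encodes lipocalin 2, which binds bacterial siderophores and so withholds iron. It read 2225 and 726 FPKM in gelADSC, and 2707 and 3433 FPKM in control. Lcn2 was the one member that was lower in both gelADSC libraries than in both controls, with a log2 difference of -1.26 (SE 0.46). Even in gelADSC library 2, where the serum amyloids were highest, it lay 0.45 below the control mean on the log2 scale, and the ratio of Lcn2 to Saa1 was 0.131 and 0.178 in gelADSC against 0.572 and 0.504 in control.

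Hp encodes haptoglobin, which binds free haemoglobin, and Hpx encodes hemopexin, which binds free heme. Hp read 13940 and 7177 FPKM in gelADSC libraries 2 and 3, and 4587 and 6201 FPKM in control libraries 1 and 3. Hpx read 13185 and 7788 FPKM in gelADSC, and 2677 and 4462 FPKM in control. Both genes were higher in both gelADSC libraries than in both controls, with log2 differences of 0.91 (SE 0.37) for Hp and 1.55 (SE 0.36) for Hpx. The ratio of Hp to Hpx was 1.06 and 0.922 in gelADSC and 1.71 and 1.39 in control, lower in both gelADSC libraries than in both controls.

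Across the 10 genes the gelADSC libraries fell on either side of the controls in some genes and on the same side in others. Both gelADSC libraries were above both controls for 4 genes (Saa4, Orm2, Hp and Hpx), as they were for 19.2% of the 11070 genes tested, and below them for 1 (Lcn2), against 50.5% of all genes. The remaining 5 genes (Saa1, Saa2, Saa3, Orm1 and Apcs) overlapped. In a limma fit across all tested genes with Benjamini-Hochberg adjustment, 2 members (Saa4 and Hpx) had an adjusted p under 0.05 and both were higher, where 24.4% of all genes were called, 6.92% higher and 17.5% lower. Because the members were chosen with this contrast in view, nothing is read from these counts. The median log2 difference of the members was 0.73, against -0.25 for all tested genes. Without gelADSC library 2 the members' median was -0.11, and without gelADSC library 3 it was 1.64. With control library 1 left out the median was 0.49, and with control library 3 left out it was 0.97. The fit called 766 genes higher and 1936 lower over the whole table, and with median ratio scaling, which removes the shift of the median, 952 higher and 948 lower.

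**Figure D2:**
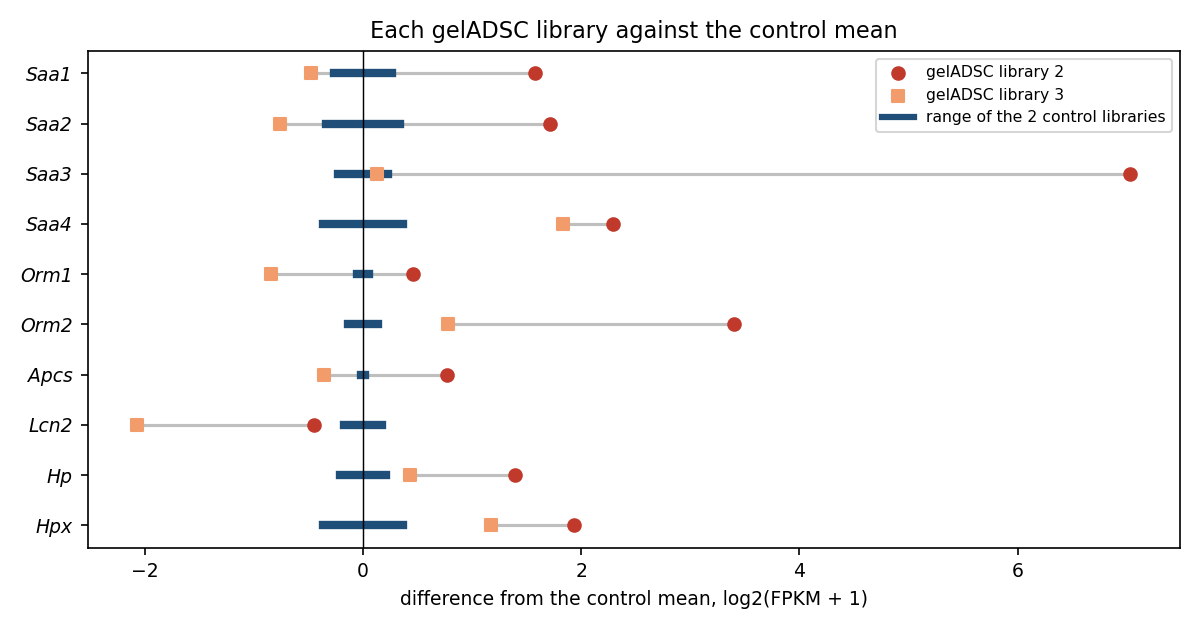
Difference of each gelADSC library from the mean of the controls on the log2(FPKM + 1) scale, for each of the 10 genes, with the range of the control libraries as a thick bar around 0. Saa4, Orm2, Hp and Hpx lay right of the control range in both gelADSC libraries, Lcn2 lay left of it in both, and Saa1, Saa2, Orm1 and Apcs lay on opposite sides of it.

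Between the gelADSC libraries all 10 genes read higher in library 2 than in library 3, against 33.1% of all tested genes. A difference of at least 2-fold was seen for 7 of 10, against 1.33% of all tested genes. This difference was part of the choice of the genes, and nothing is read from these counts. The differences differed widely among the genes, with log2 values of library 2 minus library 3 of 6.90 for Saa3, 2.62 for Orm2, 2.47 for Saa2, 2.05 for Saa1, 1.61 for Lcn2 and 1.31 for Orm1. They were 1.13 for Apcs, 0.96 for Hp, 0.76 for Hpx and 0.45 for Saa4. Quantile normalization brought those of Hp and Hpx down to 0.42 and 0.14. Between the control libraries 8 of the 10 genes read higher in library 3 than in library 1, against 23.1% of all tested genes, and 0 of 10 by at least 2-fold, against 0.524%. The median of control library 1 minus library 3 was -0.39 for the members and 0.21 for all tested genes.

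Together the 10 genes made up 14.6% and 5.36% of the summed FPKM in gelADSC libraries 2 and 3, and 4.81% and 6.46% in control libraries 1 and 3. The serum amyloids alone were 7.01% and 1.5% in gelADSC, and 1.75% and 2.65% in control. FPKM is scaled to the whole library, so a larger share for these genes lowers the share left for others. In gelADSC library 2, Saa2, Saa1, Hp and Hpx ranked 2, 3, 4 and 5 by FPKM among all genes. In gelADSC library 3 their ranks were 22, 16, 8 and 6. They were 14, 10, 11 and 22 in control library 1, and 8, 7, 10 and 16 in control library 3. In bulk liver, fewer cells of a type and less RNA per cell cannot be told apart.

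**Figure D3:**
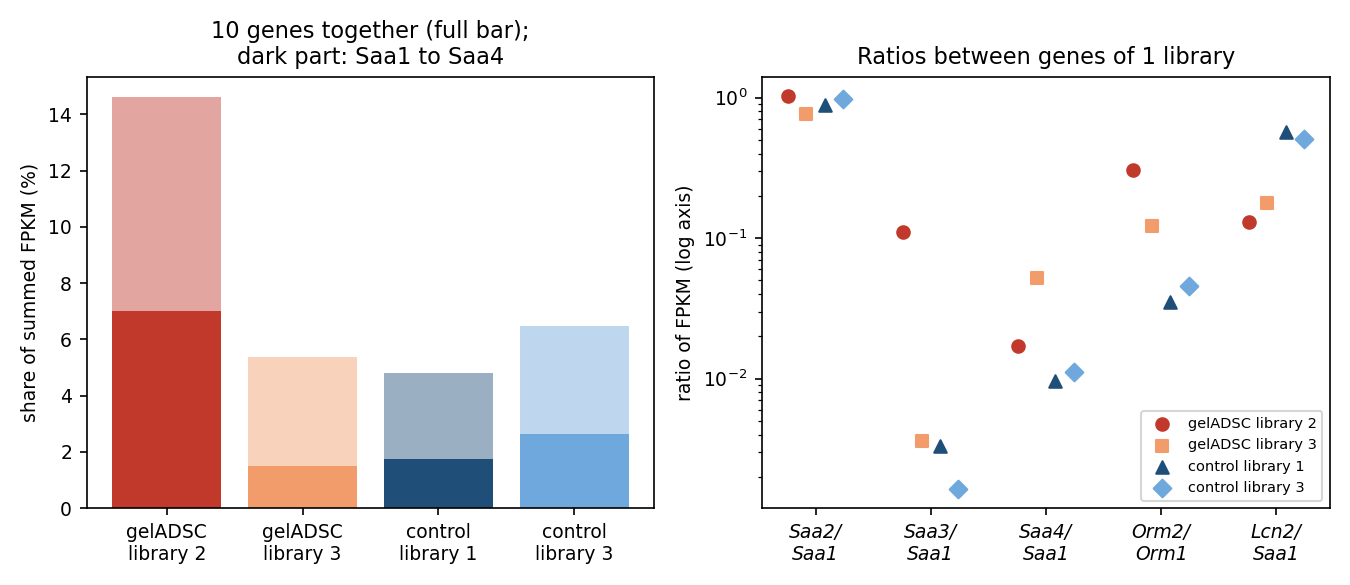
Left, share of each library's summed FPKM held by the 10 genes, in percent, with the darker part for Saa1 to Saa4. Right, ratios of FPKM between pairs of genes of the same library on a log axis. The share was 14.6% in gelADSC library 2 and between 4.81% and 6.46% in the other libraries, while the ratio of Lcn2 to Saa1 was lower in both gelADSC libraries than in both controls.

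Cells other than hepatocytes can hold Saa3 and Lcn2 transcripts, and their markers were read in the same libraries. The summed level of 10 neutrophil markers was 73.9 and 26.2 FPKM in gelADSC libraries 2 and 3, and 73.3 and 66.5 FPKM in control libraries 1 and 3. Most of it came from S100a8 and S100a9. S100a8 read 32.7 and 9.75 FPKM in gelADSC and 34.9 FPKM in both controls. S100a9 read 35.0 and 13.5 FPKM in gelADSC and 28.1 and 22.0 FPKM in control. Only 4 of the 10 neutrophil markers were high enough to be tested. Of these Retnlg alone passed the threshold, and it fell (log2 difference -1.52, SE 0.24, limma adjusted p = 0.00365), where 17.5% of all tested genes fell. The granule genes Mpo, Elane, Ltf, Camp and Ngp were below 1 FPKM throughout. The sum of 8 macrophage markers was 294 and 169 FPKM in gelADSC and 303 and 315 FPKM in control. The sum of 8 adipocyte and stromal markers was 15 and 6.86 FPKM in gelADSC and 23.2 and 5.62 FPKM in control. Adipoq, the adipocyte hormone adiponectin, read 0.765 and 0 FPKM in gelADSC and 0.652 and 0 FPKM in control. All 3 sums were higher in gelADSC library 2 than in library 3, as Saa3 was. The macrophage sum in gelADSC library 2 was below both controls, an order set by the marker Cd68, whose values are given below. Adgre1, Marco, Cd5l, Csf1r and Timd4 were each above both controls in that library, and Cd68, Clec4f and Vsig4 below both. The adipocyte and stromal sum in gelADSC library 2 lay between the controls. The neutrophil sum there was near that of control library 1, whereas Saa3 was far above both controls. Of the 8 macrophage markers 6 were higher in gelADSC library 2 and 2 in gelADSC library 3. Of all tested genes 33.1% were higher in gelADSC library 2. Marco, a macrophage scavenger receptor, read 130 and 29.8 FPKM in gelADSC and 99.3 and 123 FPKM in control, and Adgre1, which encodes the macrophage antigen F4/80, read 12.7 and 4.68 FPKM in gelADSC and 2.97 and 4.10 FPKM in control. Clec4f and Vsig4, which mark Kupffer cells, were lower in library 2. Clec4f read 7.29 and 22.6 FPKM in gelADSC and 19.0 and 26.7 FPKM in control. Vsig4 read 10.9 and 16 FPKM in gelADSC and 21.9 and 19.6 FPKM in control. Cd5l and Timd4 of the same list were higher in library 2. Cd5l read 96.0 and 70.7 FPKM in gelADSC and 46.5 and 62.3 FPKM in control. Timd4 read 5.33 and 2.65 FPKM in gelADSC and 3.53 and 4.32 FPKM in control. Cd68, a lysosomal protein of macrophages, was the one marker of this list past the threshold and fell to 16.6 and 11.7 FPKM in gelADSC, against 99.5 and 62.3 FPKM in control (log2 difference -2.42, SE 0.27, limma adjusted p = 0.000756). The part of these cells in the levels of the members was not tested. The alpha and beta globin genes Hba-a1, Hba-a2, Hbb-bs and Hbb-bt were listed at 0 in all 4 libraries and were not used.

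The 5 genes outside the list whose profile lay nearest to that of Saa1 were Per3, Thrsp, Lst1, Nr1i3 and Tef. Nearness was the Euclidean distance over the 4 libraries between log2(FPKM + 1) profiles centred on the control mean, and it was 0.26 for Per3, 0.29 for Thrsp, 0.44 for Lst1, 0.59 for Nr1i3 and 0.62 for Tef. The distance of Saa2 from Saa1 was 0.33, that of Apcs 0.88 and that of Hp 0.93. Per3 and Tef belong to the circadian clock and its output, Thrsp takes part in lipid synthesis, and Nr1i3 is the xenobiotic receptor CAR. Thrsp read 113 and 20.3 FPKM in gelADSC, and 27.4 and 35.4 FPKM in control. Per3 read 6.32 and 0.968 FPKM in gelADSC, and 0.879 and 1.88 FPKM in control. Lst1 read 6.11 and 1.43 FPKM in gelADSC, and 1.09 and 1.99 FPKM in control. Adding 1 FPKM shrinks the differences of low genes, which affects their nearness. Per3 was 6.52-fold higher in gelADSC library 2 than in library 3, against 4.15-fold for Saa1. On the log2(FPKM + 1) scale these were 1.89 and 2.05. Many profiles can be alike over 4 libraries.

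Other genes of the acute phase pathway were taken from 6 lists of 91 genes, 81 of which were tested, and in the limma fit 16 rose and 21 fell in gelADSC (adjusted p under 0.05), where 6.92% of all tested genes rose and 17.5% fell. Median ratio scaling left 10 that fell, and quantile normalization 12. Among 23 tested acute phase proteins outside the members, 5 rose and 8 fell, with a median log2 difference of -0.22 against -0.25 for all tested genes. Serpina3n, a serine protease inhibitor, rose to 1342 and 824 FPKM in gelADSC, against 273 and 372 FPKM in control (log2 difference 1.72, SE 0.28, adjusted p = 0.00437). The complement component C3 rose to 5760 and 4257 FPKM in gelADSC, against 1210 and 2184 FPKM in control (log2 difference 1.61, SE 0.33, adjusted p = 0.0111). Itih4, an inter-alpha-trypsin inhibitor heavy chain, rose with a log2 difference of 1.5 (SE 0.27, adjusted p = 0.00694). Cd14, the lipopolysaccharide co-receptor, fell to 4.19 and 1.58 FPKM in gelADSC, against 69.6 and 37.5 FPKM in control (log2 difference -3.83, SE 0.37, adjusted p = 0.000476). The metallothioneins Mt1 and Mt2, which bind zinc and copper, fell with log2 differences of -1.45 and -1.60. The fibrinogen chains moved less, with log2 differences of -0.22 for Fga, -0.32 for Fgb and -0.20 for Fgg, none past the threshold. Without control library 1 the list had 2 calls, and those of Serpina3n, C3, Itih4, Mt1 and Mt2 were lost, with adjusted p between 0.0643 for Mt2 and 0.149 for C3, the highest over the 10 alternatives for each. With a library left out, the log2 difference ran from 1.37 to 2.07 for Serpina3n and from -1.62 to -1.29 for Mt1. A fit left with 1 library in a group rests on the spread between the libraries of the other group. Its adjusted p is given only where a call was lost, and the smaller values of calls that were kept are not given. All 5 calls were also lost with no filter on low values, and that of C3 with median ratio scaling (adjusted p = 0.0588) and quantile normalization (0.0568).

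Among 10 negative acute phase proteins, which the liver makes less of during the response, 4 rose and 0 fell in the limma fit, against 6.92% and 17.5% of all tested genes, with a median log2 difference of 0.41, and at an unadjusted p under 0.05 there were 5 higher and 1 lower. Serpina6, which encodes corticosteroid-binding globulin, rose to 129 and 95.0 FPKM in gelADSC, against 0.995 and 0.529 FPKM in control (log2 difference 6.0, SE 0.23, limma adjusted p = 1.06e-05). The control values were low, and the log2 difference was 7.06 with a pseudocount of 0.1 and 4.33 with 5. Fetub, which encodes the protease inhibitor fetuin B, rose with 1.17 (SE 0.19), and Gc, the vitamin D binding protein, with 0.88 (SE 0.23). Alb, Ahsg, Rbp4, Ttr, Trf and Apoa1 did not pass the threshold. The number of calls was 2 without control library 1 and 2 without gelADSC library 3. The call of Gc was lost without control library 1 (adjusted p = 0.188), control library 3 (0.0777) or gelADSC library 3 (0.0682), with quantile normalization (0.0817) and with no filter (0.165), and its adjusted p ranged from 0.0166 to 0.188.

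Cytokines that start the response were low in whole liver. Il6 read 0.0377 and 0 FPKM in gelADSC, and 0.231 and 0.0508 FPKM in control, below the minimum for testing. Of 4 tested ligands 0 rose and 1 fell by limma, where 6.92% of all tested genes rose and 17.5% fell. The ligand counts were the same at an unadjusted p under 0.05. The one that fell was the gp130 cytokine Clcf1, which read 1.82 and 2.04 FPKM in gelADSC, against 16.4 and 9.40 FPKM in control (log2 difference -2.20, SE 0.27, adjusted p = 0.00118). Il1b read 3.52 and 1.38 FPKM in gelADSC, and 1.21 and 1.62 FPKM in control, highest in gelADSC library 2. Of 10 receptors 2 rose and 4 fell, beside the same shares of all tested genes (6.92% and 17.5%). The LIF receptor Lifr and the interleukin 1 receptor accessory protein Il1rap rose with log2 differences of 1.37 each, while the interleukin 22 receptor subunit Il22ra1 fell with -2.25 and the interleukin 1 receptor Il1r1 with -1.14. The interleukin 6 receptor subunits Il6ra and Il6st differed by 0.28 (SE 0.20) and 0.21 (SE 0.20) and did not pass the threshold. Without control library 1 some calls of the cytokine and receptor genes were lost, among them that of Il1r1 (log2 difference -1.24 in that fit).

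Among 14 tested signal transducers 0 rose and 4 fell by limma, and at an unadjusted p under 0.05 there were 0 higher and 7 lower. Of all tested genes 17.5% fell, 50.5% lay below both controls in both gelADSC libraries and the median log2 difference was -0.25, against -0.44 for this list, so nothing particular to the list is read from its direction. Socs3, the feedback inhibitor of gp130 signalling, fell to 14.2 and 8.78 FPKM in gelADSC, against 30.3 and 36.2 FPKM in control (log2 difference -1.49, SE 0.25, adjusted p = 0.00437). The NF-kB subunits Nfkb2 and Rela fell with -1.67 (SE 0.27) and -0.79 (SE 0.21). Stat3 read 55.8 and 59.3 FPKM in gelADSC, and 48.3 and 57.6 FPKM in control (log2 difference 0.12, SE 0.19, adjusted p = 0.665). Without control library 1 limma gave 0 calls in this list (4 at an unadjusted p under 0.05), and the adjusted p was 0.0653 for Socs3, 0.054 for Nfkb2 and 0.163 for Rela. That of Rela was 0.171 without gelADSC library 2, in a range of 0.0152 to 0.171. Median ratio scaling and quantile normalization left 1 call each, with adjusted p of 0.0633 for Socs3 under both and 0.052 and 0.0695 for Rela, whose call was also lost with no filter (0.07).

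Of 11 transcription factors of hepatocyte acute phase genes 3 rose and 2 fell by limma, where 6.92% of all tested genes rose and 17.5% fell. The C/EBP family went both ways. Cebpa, which maintains the differentiated hepatocyte, rose to 72.7 and 78.0 FPKM in gelADSC, against 26.8 and 29.2 FPKM in control (log2 difference 1.40, SE 0.18, adjusted p = 0.00153). Cebpd, an inducible member, fell to 3.52 and 5.60 FPKM in gelADSC, against 11.7 and 10.7 FPKM in control (log2 difference -1.16, SE 0.24, adjusted p = 0.0106). Cebpb, the other inducible member, read 49.1 and 57.5 FPKM in gelADSC, and 52.0 and 73.5 FPKM in control (log2 difference -0.22, SE 0.22, adjusted p = 0.50). Onecut1, also called HNF6, rose with 2.57 (SE 0.42) and the glucocorticoid receptor Nr3c1 with 0.64 (SE 0.19), while Creb3l3, the liver's membrane-bound CREBH factor, fell with -0.92 (SE 0.22). Without control library 1 the list had 1 call, that of Cebpa. The number was 2 without control library 3 and 3 without either gelADSC library, those of Cebpd and Onecut1 being lost without either control library (highest adjusted p 0.118 and 0.11) and with no filter (0.061 and 0.0573), and that of Cebpd also without gelADSC library 2 (0.0684). Creb3l3 lost its call without control library 1 (log2 difference -0.73) or gelADSC library 3 (-0.78). Its call was also lost with median ratio scaling (limma adjusted p = 0.0924), quantile normalization (0.0577) and no filter (0.0657). The call of Nr3c1 was lost with any 1 library left out, with adjusted p between 0.0863 and 0.259, with no filter (0.0821) and with a pseudocount of 5 (0.0517; range over all alternatives 0.0208 to 0.259).

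Receptors and partners of the secreted proteins were read in the same fit. Of 9 tested 2 rose and 2 fell, where 6.92% of all tested genes rose and 17.5% fell. Median ratio scaling and no filter left 2 calls each, and nothing particular to the list is read from these counts. Lrp1, the receptor for hemopexin with heme, rose to 134 and 120 FPKM in gelADSC, against 44.1 and 52.8 FPKM in control (log2 difference 1.37, SE 0.19, adjusted p = 0.00219). Cd163, the macrophage receptor for haptoglobin with haemoglobin, fell to 3.29 and 3.98 FPKM in gelADSC, against 6.86 and 6.34 FPKM in control (log2 difference -0.72, SE 0.21, adjusted p = 0.0368). Scarb1, a receptor for high-density lipoprotein and for serum amyloid A, fell with -1.26 (SE 0.18), and Lcat, which esterifies cholesterol on that lipoprotein, rose with 0.92 (SE 0.26). Hmox1, the heme oxygenase that breaks heme down, read 59.8 and 15.3 FPKM in gelADSC, and 100.1 and 73.3 FPKM in control (adjusted p = 0.0675). The call of Cd163 was lost with any 1 library left out, with adjusted p from 0.0714 to 0.274, with median ratio scaling (0.0593) and with no filter (0.101; range 0.0314 to 0.274 over all alternatives). That of Lcat was lost without control library 1 (log2 difference 0.61) or gelADSC library 2 (0.74). It was also lost with median ratio scaling (limma adjusted p = 0.0824), quantile normalization (0.0756) and no filter (0.113).

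**Figure D4:**
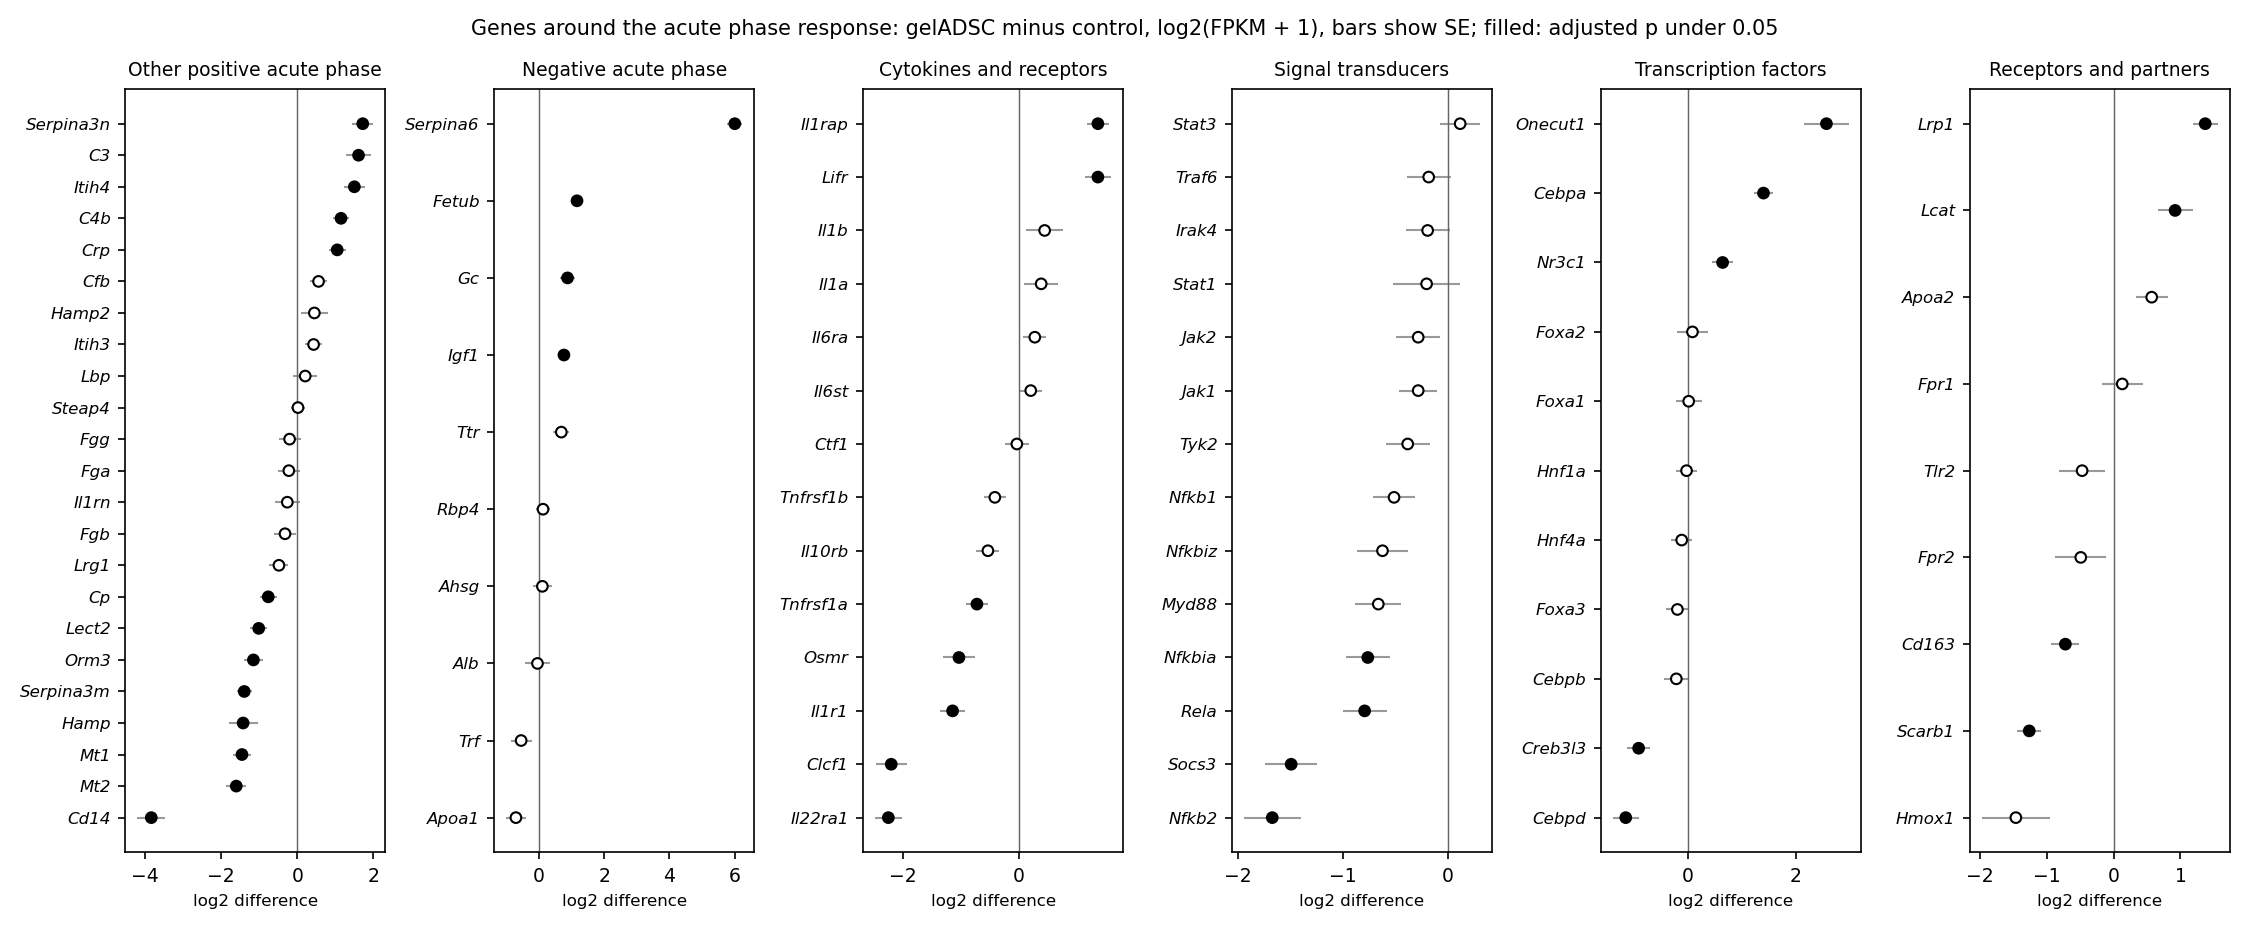
Log2 difference of gelADSC minus control on the log2(FPKM + 1) scale for the tested genes of the 6 lists, with bars for the SE and filled points where the limma adjusted p was under 0.05. Of the signal transducers 0 were called higher and 4 lower, and of the other acute phase proteins 5 higher and 8 lower, where 6.92% of all tested genes were called higher and 17.5% lower. With median ratio scaling or quantile normalization 1 signal transducer was called.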

How the data were processed

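RNA of 4 mouse liver libraries was analysed. Per the labels' protocols, liver RNA was purified on RNeasy columns and sequenced from stranded TruSeq mRNA libraries. Trimmomatic 0.38, TopHat2 2.1.1 and Cufflinks 2.2.1 are named, per the submitters' processing notes, with no order or settings, and a human build is named there that mouse symbols go against. The annotation is not given in the sources used here. The deposited table gives 1 value per symbol and library with no unit in its header. The deposited values were taken as FPKM, since Cufflinks is named and the values are not whole and each library sums to 495761 to 517719.

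Members and gene lists were chosen with earlier results of these data known. The 11070 genes that averaged 1 FPKM or more, all 10 members among them, were fitted with limma 3.58.1 in R 4.3.3 as log2(FPKM + 1), which understates changes of low genes. The fit used a mean-variance trend, and two-sided p-values were adjusted by Benjamini-Hochberg across these genes. Nothing was rescaled. The fit was tested on simulated data. Named genes were all members, up to 3 called genes per direction with the largest difference in each list, the most abundant markers, the 5 nearest to Saa1, and further genes given as values, chosen after their values were seen. Alternatives were pseudocounts of 0.1 and 5, no filter, a minimum mean of 5, median ratio scaling, quantile normalization and each library left out.

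Depth came from values under 0.2 FPKM, whose ratios between libraries were ratios of whole numbers up to 10 after scaling, within 0.001, for 87.0% to 87.8% of 1455 to 1631 genes. Totals used GENCODE M21 transcript lengths and are approximate, since 72 of 326 single-transcript genes fell in the modal bin of 1% width.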

Additional observations from a re-analysis of the deposited data

How the results depend on the processing

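Without the filter on low values, the fit over all genes called 525 genes higher and 730 lower, with quantile normalization 931 and 1000, and with median ratio scaling 952 and 948. Leaving out 1 library gave 279 to 815 higher and 326 to 1765 lower. The number of members past the threshold was 4 with a minimum mean of 5, where 606 of all genes were called higher and 1932 lower. It was 1 with median ratio scaling and 1 with no filter, and nothing is read from these numbers. The members' median log2 difference was -0.11 to 1.64 with a library left out, 0.32 with quantile normalization and 1.02 with median ratio scaling. The 81 pathway genes had 7 higher and 10 lower calls with no filter, 10 lower with median ratio scaling, 12 lower with quantile normalization, and 6 to 14 higher and 5 to 19 lower with a library left out. By list, no filter left 3 calls among other acute phase proteins, 2 among negative ones, 2 among signal transducers, 1 among transcription factors and 2 among receptors and partners. Median ratio scaling left 8, 1 and 2 among other acute phase proteins, signal transducers and receptors and partners, and quantile normalization 8 and 1 among the first and second of these. With a library left out the lists had 2 to 12, 2 to 3 (negative), 4 to 7 (cytokines and receptors), 0 to 3 (signal transducers), 1 to 3 (transcription factors) and 2 to 5 (receptors and partners) calls. A group left with 1 library is assumed there to vary as the other group does. Of 260 values of named pathway genes under the alternatives, 56 lost their call and 0 changed direction. These genes all had both gelADSC libraries on the same side of both controls. Only median ratio scaling or quantile normalization could therefore have changed a direction. Fewer libraries or more genes tested are part of the fits with a library left out or no filter. For the scalings the cause of the lost calls was not tested. No paired analysis was possible because the sources used here name no pairs and the column numbers pair no libraries.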

Other observations

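Genes of other families stood beside Saa3 at the top of the ranking by gelADSC library 2 minus library 3. They were chosen after their values were seen. Cxcl13, a chemokine that attracts B cells, ranked 2 and read 14.6 and 0.171 FPKM in gelADSC libraries 2 and 3, and 1.86 and 0.38 FPKM in control libraries 1 and 3. Reg3b and Reg3g, antibacterial lectins best known from gut and pancreas, ranked 3 and 5. Reg3b read 8.10 FPKM and Reg3g 5.40 FPKM in gelADSC library 2, and both were listed at 0 in gelADSC library 3 and in both controls. A2m, an alpha-2-macroglobulin gene of the acute phase list that was too low to be tested, read 1.35 and 0.0531 FPKM in gelADSC, and 0.0752 and 0.0946 FPKM in control. Cyp8b1, the bile acid 12-alpha-hydroxylase, ranked 11 and read 133 and 27.1 FPKM in gelADSC, and 0.412 and 0.396 FPKM in control, so the ranking holds genes high in 1 gelADSC library alone and genes high in both.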
